A study of Mus musculus with 2 samples.

Results

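The miR-34 and miR-449 genes were followed in small RNA libraries from the hearts of mice, where small RNA sequencing counts the short RNAs cut from hairpin transcripts. The members are the 6 genes named Mir34a, Mir34b, Mir34c, Mir449a, Mir449b and Mir449c in GENCODE M21, and all 6 are among the 2202 miRNA genes counted. They were chosen by symbol, as a family, and the family was selected on values of these libraries, since the level of Mir34a and the difference of Mir34c between the hearts were already known. Levels and ratios of the members are therefore descriptions, with no test. The study holds 1 group of 2 libraries, biological replicates 1 and 2, from female B6CASTF1/J mice aged 36 days, an F1 cross of C57BL/6J with CAST/EiJ. Nothing else distinguishes the libraries in the labels, no treatment is given, and a shared donor code stands beside 2 separate heart records. The spread between the libraries may therefore be technical as well as biological.

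miRNAs guide repression of messenger RNAs mainly through their seed, the bases near the 5′ end that pair with a target. The miR-34 genes are direct transcriptional targets of the tumour suppressor p53, and miR-34a represses messengers of cell cycle, survival and metabolic regulators such as Bcl2 and Sirt1. In the mouse heart, miR-34a is known for its rise with age and after injury and for repressing Ppp1r10 (PNUTS). The Mir34b/Mir34c and Mir449 clusters are best known from cells that build motile cilia and from testis, and mice that lack all 3 loci have defects of cilia and sperm. p53 itself was not measured in these libraries.

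The mature sequences show what ties the family together, and RefSeq (GRCm38.p6) gave 9 of them for 5 of the 6 genes. They run 5′ to 3′ and the capitals mark the seed, bases 2 to 8. The 5p arms, which carry the family's shared seed, are given first.
miR-34a-5p: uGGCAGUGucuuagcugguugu
miR-34b-5p: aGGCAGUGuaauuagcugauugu
miR-449a-5p: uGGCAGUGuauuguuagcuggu
miR-449c-5p: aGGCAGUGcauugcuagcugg
Each 3p arm comes from the opposite side of its hairpin and has another seed.
miR-34a-3p: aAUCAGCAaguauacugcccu
miR-34b-3p: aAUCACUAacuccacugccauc
miR-34c-3p: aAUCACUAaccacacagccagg
miR-449a-3p: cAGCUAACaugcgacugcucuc
miR-449c-3p: cAGUUGCUagcugcacuacccu
miR-34c-5p and the miRNAs of Mir449b are named only.

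The 4 printed 5p arms had 1 seed in common, GGCAGUG, and no gene outside the family carried it among the 1738 mature miRNAs of the RefSeq table. Identity from base 2 onward reached base 10 between miR-34b-5p and miR-449a-5p, and base 9 between miR-34a-5p and either of them. Against miR-449c-5p it ended at base 8 in all 3 cases, where the shared seed stops. On the 3p side, miR-34b-3p and miR-34c-3p shared the seed AUCACUA with each other and with no further gene of the table. The 3p seeds of Mir34a, Mir449a and Mir449c occurred there in no other gene. The deposited counts are per gene and do not separate the arms of a hairpin, so they do not say which of these sequences was read.

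The 6 genes lie at 3 places in the mouse genome (mm10). Mir34a (ENSMUSG00000065493.1) lies alone on chromosome 4 from 150068454 to 150068555 on the plus strand. Its last bases overlap an exon of Gm37795, a transcript of unsettled type, which starts at 150068539 on the same strand, after the end of miR-34a-3p at 150068537. Mir34b (chromosome 9, 51103562 to 51103645) and Mir34c (51103034 to 51103110) are both on the minus strand, 451 nt apart. Both lie within an intron of Btg4, an antiproliferative gene of the plus strand best known from oocytes, and 4833427G06Rik begins 956 nt beyond Mir34c on the minus strand. Mir449c (chromosome 13, 113035983 to 113036091), Mir449b (113037419 to 113037498) and Mir449a (113037534 to 113037624) follow each other on the plus strand in an intron of Cdc20b, a gene of ciliated cells. Mcidas, which encodes a regulator of the multiciliated cell fate, lies 35589 nt upstream of Mir449c on the same strand.

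**Figure D1:**
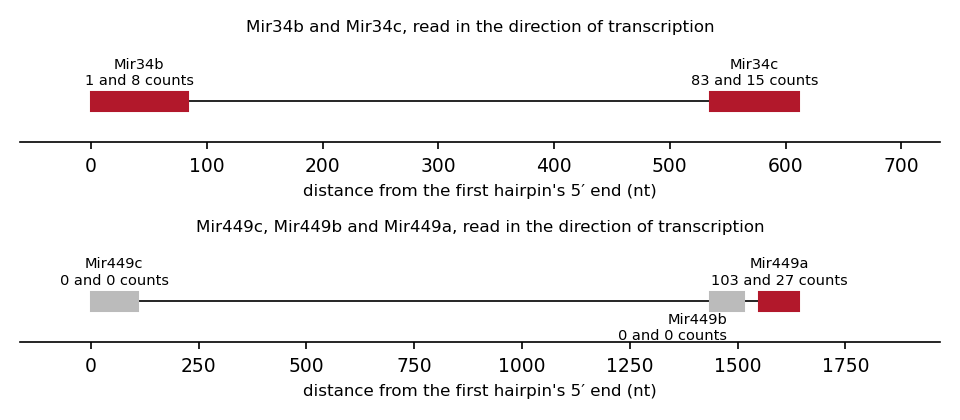
Hairpins of the Mir34b/Mir34c cluster (top) and the Mir449 cluster (bottom), drawn to scale by distance in nt from the 5′ end of the first hairpin, with sense-strand counts of replicate 1 and replicate 2 above or below each. Red hairpins had counts and grey ones had none: Mir449a had 103 and 27 counts while Mir449b, 35 nt upstream, had 0 in both libraries.

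Depth and tissue were as follows. Sense-strand reads assigned to miRNA genes numbered 2074961 in replicate 1 and 1766135 in replicate 2, and a level in CPM is a gene's count per 1000000 of these. The step of 1 read is 0.482 CPM in replicate 1, against 0.566 CPM in replicate 2. Where no read was counted, a floor of 3 counts is used, or 1.45 and 1.70 CPM. Values in brackets are exact Clopper-Pearson intervals of 95%. They and the floors cover counting error only, because PCR copies without molecular identifiers need not be separate molecules. Heart muscle markers were present: Mir208a, in the alpha myosin heavy chain gene, had 3809 CPM in replicate 1, against 5069 CPM in replicate 2. Of 7 cardiac genes, 5 reached 2 CPM in both, beside 15.2% of all genes. Mir133a-1, with 8 and 2 counts in replicates 1 and 2, and Mir133a-2, with 2 and 2, did not, and Mir1a-1 had 8 and 7 counts. These hairpins share stretches of 18 nt with other hairpins, so reads that map to several places are missing from their counts. The libraries stood apart in other marker lists. The 3 erythroid genes summed to 45889 CPM in replicate 1, against 7589 CPM in replicate 2, and the 6 genes of the embryonic stem cell miR-290 cluster to 1.45 and 190 CPM.

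Mir34a held nearly all reads of the family. Together the 6 genes had 5644 counts in replicate 1 and 2243 in replicate 2, or 2720 CPM (95% interval 2650 to 2792) and 1270 CPM (1218 to 1324). The family mean was 1995 ± 1025 CPM (SD, n = 2). The family took 0.272% of all sense counts assigned to miRNA genes in replicate 1 and 0.127% in replicate 2. Reads that map to several places are missing from that total and from any ranking of genes. Mir34a supplied 96.7% (96.2 to 97.1) of the family's counts in replicate 1 and 97.8% (97.1 to 98.3) in replicate 2. In whole-heart RNA, fewer cells of a type and less RNA per cell cannot be told apart.

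Mir34a, the p53 target best studied in heart, had 5457 counts in replicate 1 and 2193 in replicate 2. Its level was 2630 CPM (2561 to 2701) in replicate 1, against 1242 CPM (1190 to 1295) in replicate 2, a mean of 1936 ± 982 CPM (SD, n = 2). That placed it at rank 45 of 2202 genes by mean CPM, at rank 37 in replicate 1 and rank 60 in replicate 2. The level of Mir34a in replicate 1 lay above its interval in replicate 2. By distance of log2(CPM + 1) over the 2 libraries, the 3 genes nearest to it were Mir17 at 0.24, Mir15b at 0.39 and Mir98 at 0.45. Mir17 had 2252 CPM in replicate 1, against 1317 CPM in replicate 2, Mir15b 3435 and 1295 CPM, and Mir98, a let-7 family gene, 2029 and 1045 CPM. With only 2 libraries, such closeness describes level and ratio and nothing more.

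**Figure D2:**
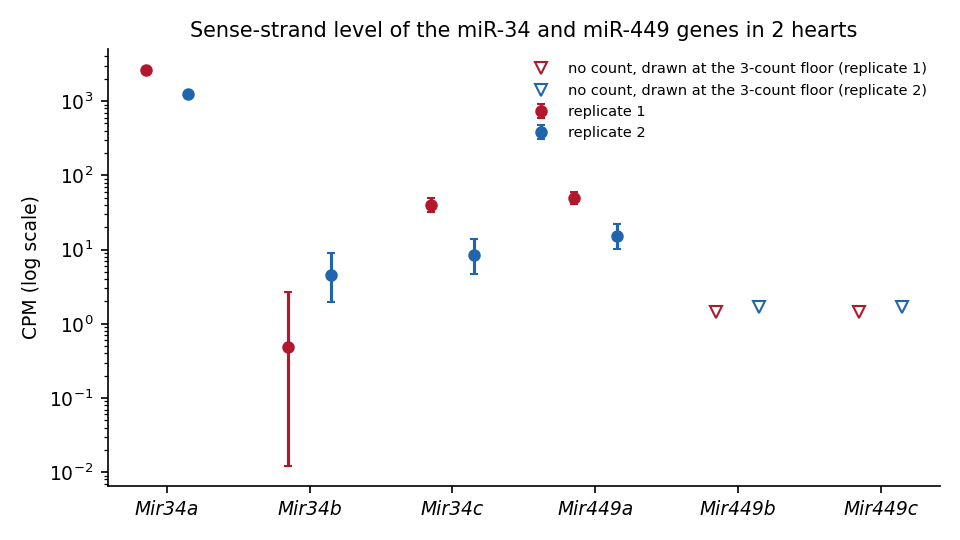
Level of each gene in CPM (log axis) in replicate 1 (red, left of each pair) and replicate 2 (blue, right). Bars are exact 95% counting intervals and open triangles mark genes with no count, drawn at the 3-count floor. Mir34a lies above 1000 CPM in both hearts, Mir34c and Mir449a lie under 100 CPM and higher in replicate 1, and Mir34b lies near the floor.

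Mir449a, the gene at the 3′ end of its cluster, came next by mean level. It had 103 counts in replicate 1 and 27 in replicate 2, or 49.6 CPM (40.5 to 60.2) and 15.3 CPM (10.1 to 22.2), with a mean of 32.5 ± 24.3 CPM (SD, n = 2) and rank 199. Its count was 1.89% (1.54 to 2.29) of that of Mir34a in replicate 1, against 1.23% (0.809 to 1.80) in replicate 2. Nearest to Mir449a in level were Mir1968 at a distance of 0.42, Mir6538 at 0.53 and Mir193a at 0.63.

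Mir449b and Mir449c, of the same cluster, had 0 counts in both libraries. Their hairpins share no run of 18 nt with another annotated hairpin. The floor of 3 counts corresponds to 1.45 CPM in replicate 1, or 1.70 CPM in replicate 2, and the exact intervals of a count of 0 end at 1.78 and 2.09 CPM. Mir449a stood above these limits in both hearts, although all 3 hairpins lie within 1642 nt of 1 strand.

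Mir34c had 83 counts in replicate 1 and 15 in replicate 2. Those equal 40.0 CPM (31.9 to 49.6) in replicate 1, against 8.49 CPM (4.75 to 14.0) in replicate 2, with a mean of 24.2 ± 22.3 CPM (SD, n = 2) and rank 218. Its level was close to that of Mir449a. The ratio of Mir449a over Mir34c was 1.24 (0.920 to 1.68) in replicate 1 and 1.80 (0.924 to 3.64) in replicate 2. The difference between Mir449a and Mir34c therefore did not exceed counting error in either heart. Mir6538 at a distance of 0.31, Mir29b-1 at 0.95 and Mir199b at 0.98 were nearest to Mir34c.

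Mir34b, 451 nt upstream of Mir34c, was near the floor, with 1 count in replicate 1 and 8 in replicate 2. In CPM this is 0.482 (0.0122 to 2.69) in replicate 1 and 4.53 (1.96 to 8.93) in replicate 2. It was therefore the only counted member that was higher in replicate 2, and on few reads. Of the reads of Mir34b and Mir34c together, Mir34b took 1 of 84 in replicate 1, a share of 1.19% (0.0301 to 6.46), and 8 of 23 in replicate 2, a share of 34.8% (16.4 to 57.3). These counting intervals do not overlap, but with 1 library on each side the difference has no replicate check.

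**Figure D3:**
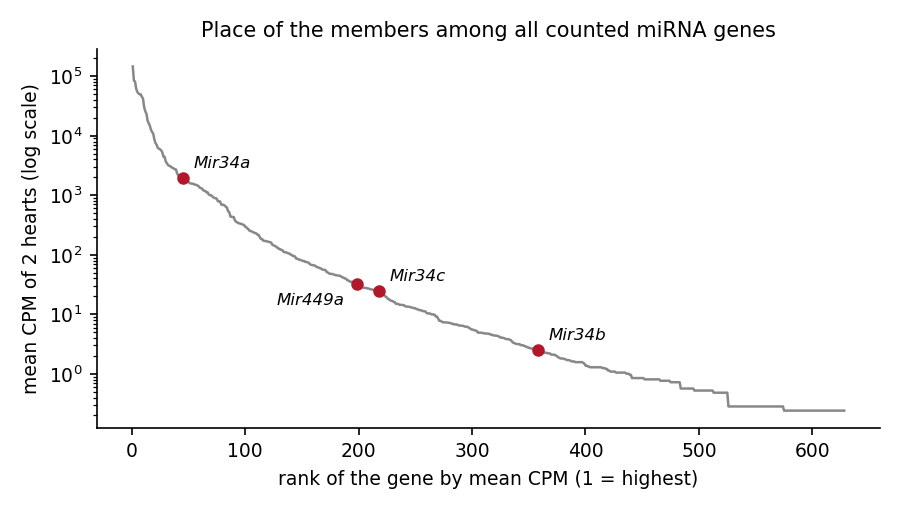
Mean CPM of both hearts (log axis) against the rank of each gene for the 628 genes with a count in either library, with the 4 counted members in red. Mir34a stands at rank 45, Mir449a and Mir34c at ranks 199 and 218, and Mir34b at rank 358.

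In all, 3 of the 6 genes, Mir34a, Mir34c and Mir449a, reached 2 CPM or more in both hearts, a limit passed by 15.2% of all genes. The order of the levels was Mir34a, Mir449a, Mir34c and Mir34b, with Mir449b and Mir449c at 0. Mir449a was above Mir34c in both hearts, but not beyond counting error in either heart taken alone, and the hearts were not pooled. The step from Mir34c down to Mir34b exceeded counting error in replicate 1 only, since their intervals overlapped in replicate 2. None of the 6 hairpins shares a run of 18 nt with another annotated hairpin, and the longest run shared by any pair of members was 11 nt. On the strand opposite to the genes, 1 read was counted, at Mir34b in replicate 2.

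Between the 2 hearts, the 3 detected members were all higher in replicate 1. Ratios are replicate 1 over replicate 2 on TMM-scaled library sizes, which set aside the genes with extreme ratios, and with 1 library on each side they carry counting intervals and no test. The ratio was 2.38 (2.27 to 2.50) for Mir34a, 3.65 (2.37 to 5.81) for Mir449a and 5.30 (3.03 to 9.89) for Mir34c. Intervals of Mir449a and Mir34c overlapped each other, and so did those of Mir34a and Mir449a, while that of Mir34c began above the end of that of Mir34a. For Mir34b, with 9 counts in all, the ratio was 0.120 (0.00270 to 0.892).

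Of the members with 10 or more counts over both libraries, 3 of 3 differed 2-fold or more. Among all 359 genes with that many counts, 20.3% did, 9.75% higher in replicate 1 and 10.6% higher in replicate 2. Since Mir34c was known to differ when the set was proposed, nothing is read from that count. Of 70 genes that averaged 1000 CPM or more, 7 (10%) were past 2-fold, Mir34a among them. In the class of 10 to 100 CPM, which holds Mir34c and Mir449a, 25 of 124 genes (20.2%) were. The directions of Mir34a, Mir34b, Mir34c and Mir449a did not change with DESeq2 size factors or library size alone. Each of these shifts every log2 ratio by the same amount, too little to turn any of these members. Library size alone lowers every log2 ratio by 0.17, and Mir34a then stood at 1.08 against 1.25 on the log2 scale.

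**Figure D4:**
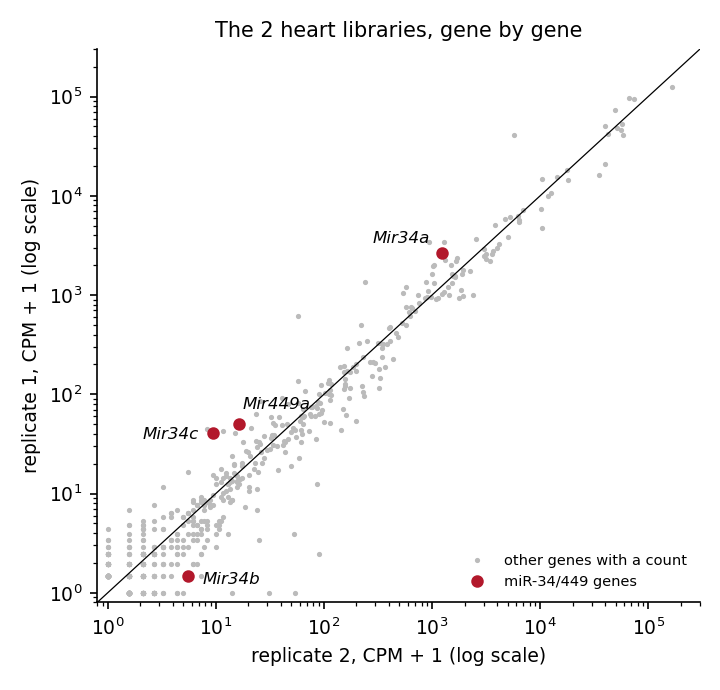
CPM + 1 of replicate 1 against replicate 2 (both axes log) for every gene with a count, grey, and the 4 counted miR-34 and miR-449 genes, red. The line marks equal CPM. Mir34a, Mir34c and Mir449a lie above it and Mir34b, with 1 and 8 counts, below it.

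Other markers moved between the same 2 libraries. Of the erythroid list, 3 of 3 genes were higher in replicate 1, with Mir451a at 8.11 times (7.95 to 8.28), Mir144 at 4.10 times and Mir486, which shares 10 stretches of 18 nt with Mir3107, at 1.34 times. On library size alone, without TMM scaling, the log2 ratios of Mir34a, Mir449a and Mir34c were 1.08, 1.70 and 2.24. With the erythroid genes left out of those library totals, they were 1.14, 1.76 and 2.29. Leaving them out changes the totals alone and shifts every gene alike, so it cannot show how much erythroid RNA the members' counts hold. Markers of epithelium, whose ciliated kinds use the Mir34b/Mir34c and Mir449 clusters, went the other way in sum but not gene by gene. The 10 epithelial genes summed to 425 CPM (397 to 454) in replicate 1, against 772 CPM (732 to 814) in replicate 2, with none at 0 in both libraries. Mir205 had 2.89 CPM in replicate 1, against 51.5 CPM in replicate 2, and Mir200b 11.6 and 85.5 CPM. Mir200c, the highest of the list, had 224 CPM in replicate 1, against 431 CPM in replicate 2. Of 9 epithelial genes with 10 or more counts, 0 were 2-fold higher in replicate 1, beside 9.75% of all genes with that many counts. Another 3, Mir200a, Mir200b and Mir205, were 2-fold higher in replicate 2, beside 10.6% of all such genes. The ratio of Mir200a, 0.479 (0.189 to 1.12), had an interval that spans 1, and Mir429 had a ratio of 0.501 (0.321 to 0.769). Mir182 was higher in replicate 1, with a ratio of 1.54 (1.06 to 2.25). The ratio was 1.29 (0.896 to 1.86) for Mir183 and 1.06 (0.850 to 1.33) for Mir203, whose direction turned with library size alone. The endothelial gene Mir126a had 97017 CPM in replicate 1, against 65811 CPM in replicate 2, and its ratio of 1.66 (1.65 to 1.67) had the direction of Mir34a, Mir34c and Mir449a. Among leukocyte genes, Mir142 was 2.57 times higher (2.28 to 2.89) in replicate 1, while Mir150 and Mir223 were higher in replicate 2, with ratios of 0.559 (0.528 to 0.590) and 0.472 (0.351 to 0.630). The 7 cardiac muscle genes summed to 6210 CPM in replicate 1, against 8745 CPM in replicate 2, but did not share 1 direction. Ratios were 0.845 (0.820 to 0.871) for Mir208a and 0.716 (0.689 to 0.744) for Mir499, but 1.75 (1.29 to 2.41) for Mir1a-2. The part of cardiac muscle, erythroid, endothelial, leukocyte, epithelial or embryonic stem cell RNA in the ratios of Mir34a, Mir34c and Mir449a was not tested.

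Other miRNA genes that have been tied to p53, mostly in human cells, did not share 1 direction. Of a list of 13, 12 were in the table, and all 12 of these reached 2 CPM in both hearts, beside 15.2% of all genes. They summed to 62839 CPM in replicate 1, against 57661 CPM in replicate 2, most of it Mir143. Their median log2 ratio was 0.00, beside 0.02 over all genes with 10 or more counts that were counted in both libraries. Past 2-fold were 2 of 12, both higher in replicate 1, against the 20.3% of all genes.

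The first of these was Mir107, a p53-responsive gene in Pank1 in human cells, with 2788 counts in replicate 1 and 423 in replicate 2. Its ratio was 6.31 (5.69 to 7.01), but 13 of the 70 stretches of 18 nt along its hairpin recur in Mir103-1 or Mir103-2, so reads that map to several places are missing from its count. The second was Mir15a, known for repressing Bcl2, with 1209 CPM in replicate 1, against 578 CPM in replicate 2, and a ratio of 2.35 (2.19 to 2.53), close to that of Mir34a. Mir16-1, its cluster partner, had a ratio of 1.51 (1.44 to 1.59). Of its 76 such stretches, 6 recur in Mir16-2, so reads that map to both are missing from its count.

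Mir22, abundant in heart muscle, had 14790 CPM in replicate 1, against 10516 CPM in replicate 2, a ratio of 1.58 (1.55 to 1.61). The smooth muscle genes Mir143 and Mir145a, whose processing p53 has been reported to promote, had ratios of 1.11 (1.10 to 1.13) and 0.681 (0.645 to 0.718), and the direction of Mir143 turned with library size alone. Mir192, Mir194-1, Mir194-2 and Mir215, which are typical of liver, gut and kidney and are p53-responsive in human cells, lay between 11.6 and 75.9 CPM. Their ratios lay between 0.824 and 1.09, each with an interval that spans 1, and the direction of Mir215 also turned with library size alone. The hairpins of Mir194-1 and Mir194-2 share 5 stretches of 18 nt, so both counts can be too low. Mir200c, from the epithelial miR-200 family, had a ratio of 0.585 (0.520 to 0.657), and Mir141, beside it in the genome, 0.914 (0.478 to 1.74).

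**Figure D5:**
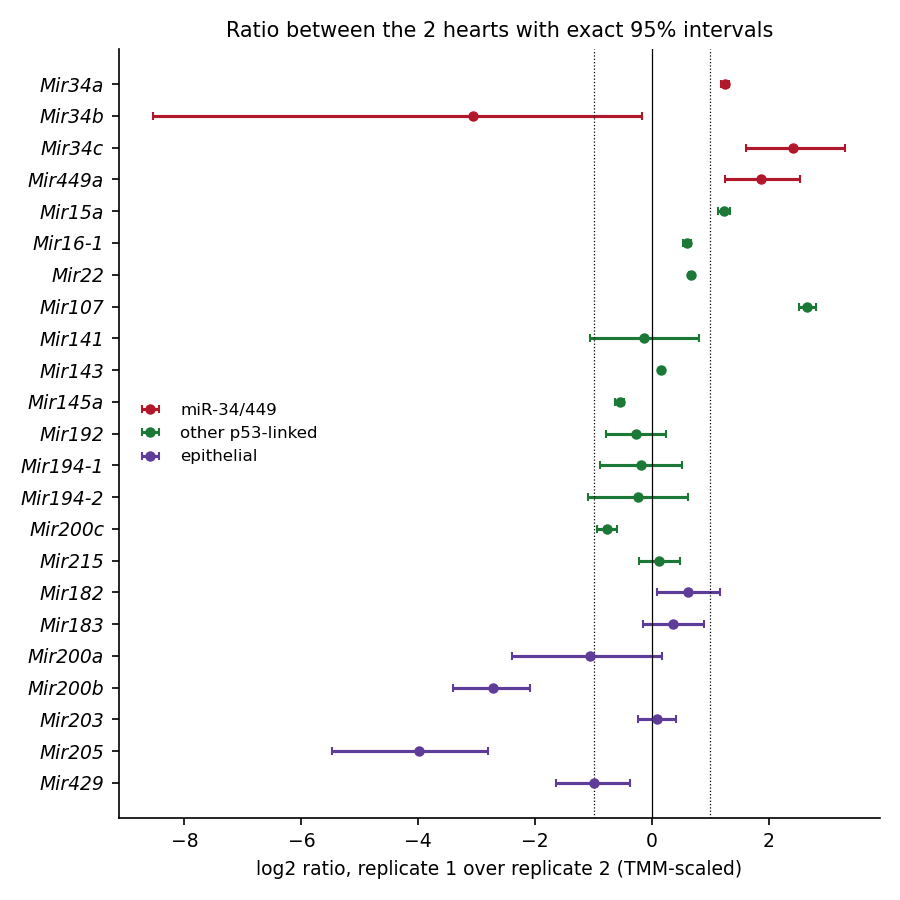
Log2 ratio of replicate 1 over replicate 2 (TMM-scaled) with exact 95% counting intervals for the 4 counted miR-34 and miR-449 genes (red), the 12 other p53-linked genes (green) and 7 further epithelial genes counted in both libraries (purple). Dotted lines mark a 2-fold difference. Mir34a, Mir34c, Mir449a, Mir15a and Mir107 lie past it towards replicate 1, while Mir34b, Mir200a, Mir200b and Mir205 lie past it towards replicate 2.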

How the data were processed

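Small RNA libraries of 2 mouse hearts were analysed from raw read counts per miRNA gene that the authors deposited on mm10 with GENCODE M21, per the deposited notes; aligner and counter: not given in the sources used here. Each table counts reads 3 ways: ignoring strand, sense to the gene, and antisense to it. Sense counts were used, and the 4 rows that name no gene were left out of totals. Reads mapping to several places (42.0% and 39.8% of all reads in replicates 1 and 2) are in no gene's count. All 2202 gene IDs matched GENCODE M21. Ratios used TMM sizes (edgeR 4.0.16, R 4.3.3), with DESeq2 1.42.0 size factors and library size as alternatives, and exact binomial intervals (scipy 1.17.1). Seeds and runs of 18 nt were searched in RefSeq and GENCODE sequences. The interval and ratio code was tested on simulated data. Named genes are the members, the p53-linked and epithelial lists, and the 3 Mir genes nearest in level to each detected member; marker genes come from fixed lists. Members and lists were chosen with earlier results of these data known.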

Additional observations from a re-analysis of the deposited data

How the results depend on the processing

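Of 30 values of the main results under alternatives, 29 stayed within the SD of the libraries or within 1.5 times the main count, and 1 moved. The SD of 2 libraries is a wide margin. With strand ignored, the family level was 2781 CPM against 1995 CPM, which counts as unmoved beside an SD of 1025 CPM. Counts of the members hardly changed, and their CPM rose because the total over genes fell. That total went from 2074961 to 1473763 in replicate 1, and from 1766135 to 1295913 in replicate 2. With library sizes over all reads in place of reads at miRNA genes, the family level was 728 CPM against 1995 CPM, since the larger total lowers every value. Leaving out 1 of 2 libraries cannot move a mean by more than their SD; it gave family levels of 1270 to 2720 CPM, Mir34a shares of 96.7% to 97.8%, Mir34b shares of 1.19% to 34.8%, 3 to 4 members detected and 12 of the p53-linked list detected. At a limit of 10 CPM, 2 members were detected, without Mir34c. Without a minimum count, or with strand ignored, 4 members were past 2-fold, since Mir34b was then included. Each other scaling shifts the log2 ratios of all genes by the same amount, small beside those of the members. All 12 log2 ratios of members under other scalings therefore kept their sign. Of these, 2, both of Mir34a, left its counting interval around 1.25 with TMM. They were 1.08 with library size alone, and 1.14 with the erythroid list also left out of those totals. The latter alternative was chosen after seeing the data. No paired analysis was possible because there is 1 group. Depth limits Mir34b, Mir449b and Mir449c, whose counts lie at or near the floor.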
